A study of Bos taurus with 40 samples.

Results

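OXTR, the oxytocin receptor gene, was followed through the early luteal phase in bovine endometrium, the lining of the uterus. It is 1 gene of 32671 named in the deposited count table, listed there by symbol (NCBI Gene 281371), and it was chosen for its reported loss after day 5 and return by day 16. Endometrium came from 20 synchronised heifers killed 5, 7, 13 or 16 days after estrus, with 5 heifers a day. Each heifer gave 1 library from the horn ipsilateral to the corpus luteum, the progesterone-secreting gland left by ovulation, and 1 from the contralateral horn. The resulting 40 libraries form 8 groups of 5: ipsilateral and contralateral horn on day 5, day 7, day 13 and day 16. All groups share the synchronisation, no treatment differs between them, and neither breed nor age is stated in these sources. The sample labels call each time a day of pregnancy, whereas the study's design counts days from estrus, and neither says whether embryos were present. Each animal was sampled on 1 day, so a change between days compares different heifers.

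The oxytocin receptor is a membrane receptor that couples mainly to the G protein Gq. Through phospholipase C it releases calcium from stores and activates protein kinase C. In the ruminant uterus, oxytocin from the pituitary and the corpus luteum acts on endometrial receptors to release pulses of prostaglandin F, which end the life of the corpus luteum. Receptor number is known to be high around estrus, to fall under progesterone, and to return late in a cycle without pregnancy. In ruminants, interferon tau from the elongating conceptus keeps it low.

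The libraries held 27025591 to 64364661 counted reads (median 33186834), of which OXTR received 28 to 9569. A filter on low counts left 20356 genes tested. Levels are given as CPM, reads of a gene relative to the total of its library, scaled between libraries by the trimmed mean of M values. Marker genes of epithelium, stroma, smooth muscle, endothelium and immune cells were detected in every library, the lowest single count being 27. The tissue was a homogenate, so fewer cells of a type and less RNA per cell cannot be told apart. A pair of ipsilateral libraries stood apart. On day 5, heifer 8-1350 had a summed level of the 12 smooth muscle markers of 5939 CPM, against 360 to 1446 CPM in the other 39 libraries. On day 16, heifer 5-137 lay at 6.91 on the component that held 42.1% of the variance, while the other ipsilateral libraries of that day lay between 50.3 and 56.8. OXTR in these libraries was 62.4 CPM, inside the range of its group, and 25.3 CPM, the highest of its group. The day 5 to day 7 counts and medians of smooth muscle markers, and the calls lost without 1 of them, are given with and without them. The heifer tags are in doubt. Across genes, libraries with the same tag deviated together from their group means with a correlation over 0.1 in 5 of 20 heifers (range -0.258 to 0.669, median -0.0464). On day 5 the summed level of interferon-stimulated genes was 3519 CPM in the ipsilateral library tagged 1-315 and 455 CPM in its contralateral one, against 598 and 2783 CPM for tag 3-175, so the high library of each horn carried a different tag. Whether libraries were exchanged between heifers of 1 day was not tested. Heifer numbers therefore name libraries as tagged, and the comparisons of groups do not use them.

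OXTR was high on day 5 in both horns, had dropped by day 7, was lowest on day 13 and had partly come back on day 16. On day 5 the ipsilateral libraries of heifers 1-315, 3-175, 4-184, 7-300 and 8-1350 held 41.1, 144, 56.7, 68.5 and 62.4 CPM. The contralateral libraries of the same heifers held 110, 31.5, 59.4, 53.6 and 66.5 CPM. The mean was 74.6 ± 40.3 CPM (SD, n = 5) ipsilaterally and 64.3 ± 28.9 CPM (SD, n = 5) contralaterally, so the horns covered much the same range. The ipsilateral maximum was 144 CPM, against at most 68.5 CPM in the others, and the contralateral maximum 110 CPM, against at most 66.5 CPM. The libraries of these maxima carried different tags.

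On day 7 the ipsilateral libraries of heifers 2-1337, 2-371, 4-064, 5-117 and 6-338 held 9.24, 12.5, 2.75, 20.4 and 3.93 CPM. The contralateral libraries held 10.3, 14.7, 2.50, 3.53 and 12.5 CPM, in the same order. No day 7 library reached the lowest of day 5, and in each horn 2 libraries lay well below the other 3. The means were 9.77 ± 7.15 CPM (SD, n = 5) and 8.70 ± 5.43 CPM (SD, n = 5). From day 5 to day 7 the fitted log2 change was -2.93 ± 0.59 (SE) ipsilaterally, a 7.62-fold lower level, and -2.88 ± 0.59 (SE) contralaterally, 7.38-fold lower. Among 20356 genes these were the 91st and the 49th lowest changes. The day pattern is what OXTR was chosen for, so its changes between days are descriptions and carry no p-value. For background, 7.93% of genes in the ipsilateral and 6.08% in the contralateral horn had every day 7 library below every day 5 library.

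On day 13 the ipsilateral libraries of heifers 4-1314, 5-140, 5-167, 6-203 and 8-275 held 1.05, 1.00, 7.94, 5.07 and 2.04 CPM. The contralateral libraries held 1.93, 7.71, 2.59, 1.83 and 2.52 CPM. These were the lowest groups of the series, at 3.42 ± 3.02 CPM (SD, n = 5) and 3.32 ± 2.48 CPM (SD, n = 5), and they overlapped day 7. The log2 change from day 7 was -1.51 ± 0.58 (SE) in the ipsilateral and -1.40 ± 0.58 (SE) in the contralateral horn.

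On day 16 the ipsilateral libraries of heifers 2-068, 3-155, 5-137, 7-107 and 8-245 held 17.1, 4.52, 25.3, 16.99 and 22.5 CPM. The contralateral libraries held 16.7, 24.7, 10.1, 21.9 and 33.98 CPM. Contralaterally every day 16 library lay above every day 13 library, which 1.64% of all genes did. Ipsilaterally the library of heifer 3-155 stayed inside the day 13 range while the other 4 were above it. The means were 17.3 ± 7.98 CPM (SD, n = 5) and 21.5 ± 8.95 CPM (SD, n = 5). The log2 change from day 13 was 2.33 ± 0.59 (SE) ipsilaterally, 5.04-fold, and 2.70 ± 0.59 (SE) contralaterally, 6.50-fold. Among all genes these ranked 58th and 26th from the highest, between days over which 1.02% and 1.33% of genes passed an adjusted p of 0.05 in either direction. As higher, 0.452% and 0.432% of genes passed, and as lower 0.57% and 0.899%.

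**Figure D1:**
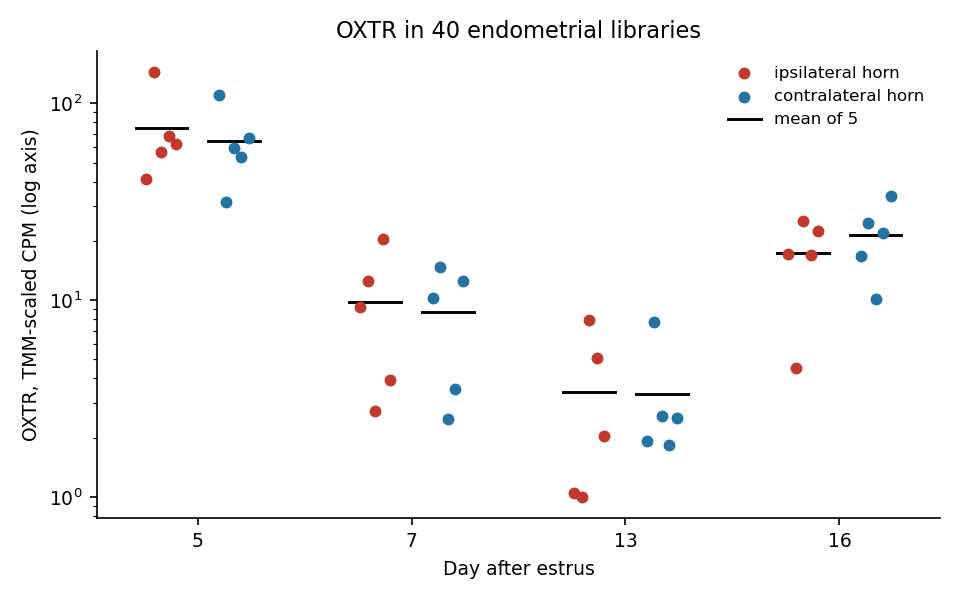
OXTR level in each of the 40 libraries (points; vertical axis TMM-scaled CPM on a log axis) by day after estrus (horizontal axis) and horn (colour), with the mean of the 5 libraries of each group as a line. Day 5 spans 31.5 to 144 CPM, day 13 spans 1.00 to 7.94 CPM, and day 16 lies between them at 4.52 to 33.98 CPM.

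The return was incomplete. Against day 5, OXTR on day 16 was 4.32-fold lower ipsilaterally (log2 -2.11 ± 0.57, SE) and 2.99-fold lower contralaterally (log2 -1.58 ± 0.56, SE). Ipsilaterally no day 16 library reached day 5, as for 10.8% of genes. Contralaterally the highest day 16 library, 33.98 CPM, passed the lowest of day 5, 31.5 CPM. Ordered by mean level the groups ran from day 5 ipsilateral through day 5 contralateral, day 16 contralateral, day 16 ipsilateral, day 7 ipsilateral, day 7 contralateral and day 13 ipsilateral to day 13 contralateral. The ranges of all 7 neighbouring pairs in that order overlapped. Within a group the highest library exceeded the lowest by 3.37-fold to 7.91-fold.

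The study asked whether the horns differ, and for OXTR no difference beyond the spread between libraries was found by edgeR's quasi-likelihood test with Benjamini-Hochberg adjustment over all genes. Averaged over days, the log2 ratio of ipsilateral to contralateral was 0.03 ± 0.28 (SE), with a 95% interval from -0.54 to 0.60 and an adjusted p of 0.948. That interval spans folds of 0.690 to 1.51, so a difference within it is not excluded here. Over the same 40 libraries 38.2% of all genes passed the test between horns. By day the log2 ratio was 0.22 ± 0.54 (SE) on day 5 (adjusted p = 0.833) and 0.17 ± 0.56 (SE) on day 7 (adjusted p = 0.917). It was 0.05 ± 0.59 (SE) on day 13 (adjusted p = 0.984) and -0.31 ± 0.55 (SE) on day 16 (adjusted p = 0.884). Each of these daily intervals reached at least 0.80 and at most -0.88 on the log2 scale.

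The drop and the return were also compared between the horns directly. The log2 change from day 5 to day 7 differed between ipsilateral and contralateral horn by -0.05 ± 0.78 (SE; edgeR adjusted p = 1.00). The change from day 13 to day 16 differed by -0.37 ± 0.80 (SE; adjusted p = 1.00), and that from day 5 to day 16 by -0.53 ± 0.77 (SE; adjusted p = 0.924). The intervals of these differences were wide, from -1.995 to 1.26 for day 13 to 16, so a sizeable difference between horns is not excluded.

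**Figure D2:**
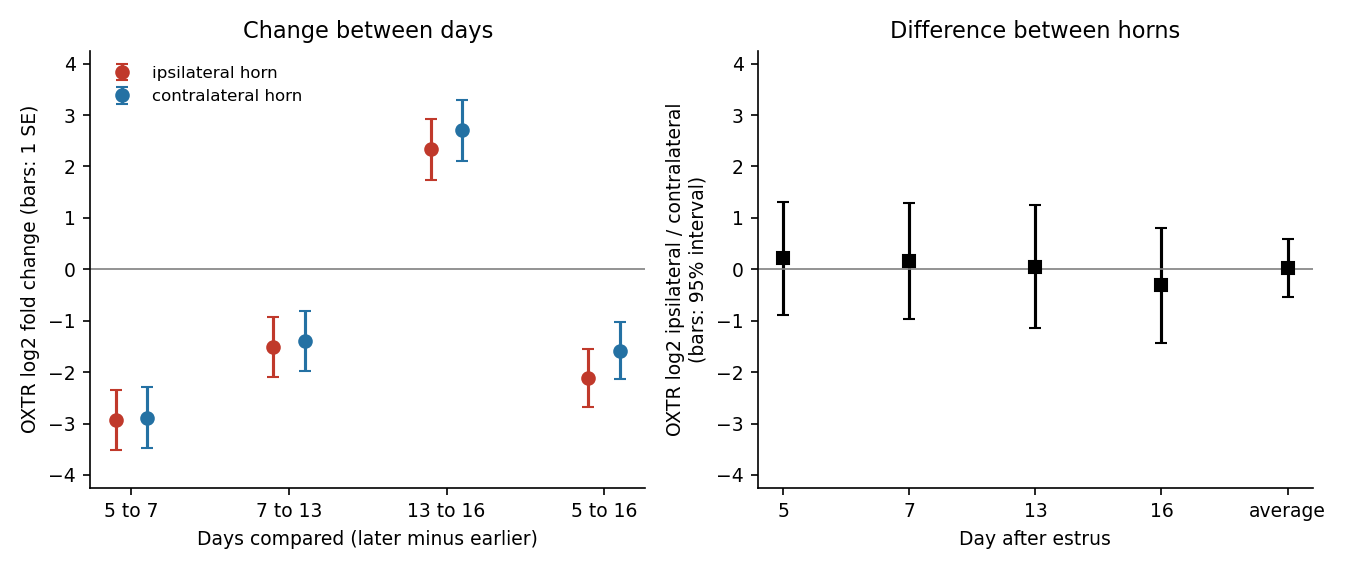
Left, fitted log2 fold change of OXTR between days (horizontal axis) in each horn, with bars of 1 SE. Right, log2 ratio of ipsilateral to contralateral OXTR by day and averaged over days, with 95% intervals; all 5 intervals include 0, and the average is 0.03.

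By tag, OXTR was higher in the ipsilateral horn in 8 of 20, with 2 of 5 on each day. The higher horn exceeded the lower by 1.02-fold to 7.68-fold (median 1.67), and by over 2-fold under 9 tags. The widest gaps were under tag 5-140 on day 13 (1.00 ipsilateral against 7.71 CPM contralateral), tag 5-117 on day 7 (20.4 against 3.53 CPM) and tag 3-155 on day 16 (4.52 against 24.7 CPM). Same-tag libraries correlated at 0.0211, -0.258 and -0.0425 under these tags. Under tag 5-117 the summed interferon-stimulated genes stood at 2642 CPM ipsilaterally and 7358 CPM contralaterally, while the contralateral library tagged 6-338 had 2705 CPM and 12.5 CPM of OXTR. Whether these gaps compare the horns of 1 animal cannot be told from the tags.

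Genes that make, cut or bind the ligand came next. Of the 9 other members of the oxytocin system, 5 could be tested: the hormone gene OXT, the vasopressin receptor AVPR1A, the oxytocin-cleaving aminopeptidase LNPEP, the ADP-ribosyl cyclase CD38, known for its part in oxytocin release, and the peptide-amidating enzyme PAM. AVP and the receptors AVPR1B and AVPR2, with the prohormone convertase PCSK1, had at most 7 reads in any library. From day 5 to day 7, 1 of the 5 fell in each horn and 0 rose. Over the same days 30.7% of all genes passed ipsilaterally, 15.9% as higher and 14.8% as lower. Contralaterally 19.8% passed, 10.1% as higher and 9.65% as lower.

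OXT was the member that fell. On day 5 the ipsilateral libraries held 1.48, 12.1, 1.53, 0.488 and 2.50 CPM of OXT and the contralateral libraries 9.95, 1.81, 0.981, 0.833 and 4.60 CPM, in the order of heifers given above. These correspond to 14 to 802 reads. In each horn the library with most OXT was also the one with most OXTR, heifer 3-175 ipsilaterally and heifer 1-315 contralaterally. By day 7 OXT was 1.22 CPM or less in every library. Its log2 change was -3.53 ± 0.88 (SE, edgeR adjusted p = 0.00269) ipsilaterally and -4.17 ± 0.93 (SE, adjusted p = 0.0014) contralaterally. On day 7 heifer 5-117 held both the most OXT (1.22 CPM) and the most OXTR (20.4 CPM) of the ipsilateral group, whereas contralaterally OXT was highest in heifer 6-338 and OXTR in heifer 2-371. On day 16, when OXTR was back, OXT had 0 to 10 reads a library, and its change from day 13 did not pass the test in either horn (adjusted p = 0.537 ipsilaterally and 0.816 contralaterally).

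LNPEP, the enzyme that cleaves oxytocin, differed between horns. On day 5 it stood at 22.6 to 39.4 CPM ipsilaterally (mean 31.7 ± 6.93, SD, n = 5) and 4.19 to 14.2 CPM contralaterally (mean 7.28 ± 3.99, SD, n = 5), without overlap, on a day when 22.7% of all genes passed between horns. The log2 ratio on day 5 was 2.12 ± 0.40 (SE, edgeR adjusted p = 0.000176), and averaged over days 1.27 ± 0.19 (SE, adjusted p = 2.16e-06), a 2.40-fold higher level. The horn ranges overlapped on days 13 and 16, with means of 17.6 against 9.66 CPM and 21.3 against 13.6 CPM. On each of those days LNPEP did not pass the test between horns, and 0 of the 5 tested members of the list did. PAM rose from day 7 to day 13 by 0.51 ± 0.15 (SE, adjusted p = 0.00672) and 0.60 ± 0.15 (SE, adjusted p = 0.00159) on the log2 scale.

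Downstream of the receptor, 31 of 32 listed signalling genes were tested; the remaining entry is a second symbol of ADRBK1. From day 5 to day 7, 4 rose and 7 fell ipsilaterally, beside 15.9% and 14.8% of all genes. Contralaterally 3 rose and 5 fell, beside 10.1% and 9.65%. The median log2 changes were -0.19 and -0.12, against -0.01 and 0.00 over all tested genes, and the members ranged from -1.86 to 0.97 ipsilaterally and from -0.74 to 0.82 contralaterally. PRKCE, a protein kinase C, fell by 0.93 ± 0.09 (SE, adjusted p = 5.00e-09) and by 0.62 ± 0.09 (SE, adjusted p = 8.98e-06). GNAI1, the alpha subunit of an inhibitory G protein, fell by 0.93 ± 0.16 (SE, adjusted p = 3.46e-05) and by 0.74 ± 0.16 (SE, adjusted p = 0.000823). MYLK, the myosin light chain kinase of contraction, fell by 1.86 ± 0.45 (SE, adjusted p = 0.00211) ipsilaterally. Without heifer 8-1350, whose smooth muscle marker sum stood apart, its log2 change was -0.80 (adjusted p = 0.0855).

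From day 7 to day 13, 3 signalling genes rose and 7 fell ipsilaterally, and 4 rose and 8 fell contralaterally, beside 29.8% and 32.9% of all genes called in either direction. The shares of all genes called higher and lower were 14.5% and 15.3% ipsilaterally and 15.8% and 17.1% contralaterally. RGS4, which shortens signals of Gq and Gi, fell the most of the list, by 3.90 ± 0.71 (SE, adjusted p = 5.45e-05) on the log2 scale ipsilaterally, and its contralateral log2 change was -3.43 ± 0.69 (SE, adjusted p = 0.000168). Its level went from 10.2 to 23.3 CPM on day 7 to 0.809 to 1.39 CPM on day 13 ipsilaterally, and from 14.8 to 21.7 CPM to 0.920 to 2.72 CPM contralaterally. PRKCD, another protein kinase C, fell by 0.67 ± 0.12 (SE, adjusted p = 3.30e-05) and by 0.65 ± 0.12 (SE, adjusted p = 3.74e-05). PRKCE rose by 0.53 ± 0.09 (SE, adjusted p = 2.23e-05) and 0.45 ± 0.09 (SE, adjusted p = 0.000148).

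Between day 13 and day 16, 0 of the 31 signalling genes passed ipsilaterally and 1 rose contralaterally, over an interval in which 1.02% and 1.33% of all genes passed. At an unadjusted p below 0.05 there were 6 of 31 in each horn. The gene was PRKCE, with a log2 change of 0.44 ± 0.09 (SE, adjusted p = 0.0077); its ipsilateral value was 0.32 ± 0.09 (SE, adjusted p = 0.0696). PRKCE thus fell with OXTR from day 5 to day 7 and was higher on day 16 than on day 13 in its mean level in both horns, but unlike OXTR it rose from day 7 to day 13. Over the 4 lists of ligand, signalling, regulator and prostaglandin genes together, edgeR called 0 of 69 genes ipsilaterally and 1 contralaterally over this interval. At an unadjusted p below 0.05 there were 15 and 13 genes of the 69, beside 12.1% and 12.5% of all genes. DESeq2 called 1 in each horn, and limma-voom called 0 ipsilaterally and 1 contralaterally.

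Between horns the signalling list split. Averaged over days, 8 members were higher ipsilaterally and 11 lower, beside 19.6% and 18.6% of all genes. The kinases ROCK1 and ROCK2, which hold smooth muscle in contraction, had log2 ratios of 0.79 ± 0.05 (SE, adjusted p = 1.44e-14) and 0.99 ± 0.06 (SE, adjusted p = 2.64e-14). ROCK2 on day 5 ranged from 111 to 155 CPM ipsilaterally and from 41.2 to 61.0 CPM contralaterally. GNAQ, the alpha subunit of Gq, was higher by 0.59 ± 0.09 (SE, adjusted p = 4.27e-06), and the phospholipase PLCB1 by 0.66 ± 0.07 (SE, adjusted p = 3.90e-10).

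GNA11, a close relative of GNAQ in the same receptor pathway, lay the other way, at -0.30 ± 0.04 (SE, adjusted p = 3.40e-07). The small GTPase RHOA was at -0.29 ± 0.03 (SE, adjusted p = 1.23e-08) and the kinase MAPK3 at -0.28 ± 0.03 (SE, adjusted p = 6.15e-08). Of the epithelial markers, 7 of 12 were lower ipsilaterally and 0 higher in the same comparison. Their part in these differences was not tested. Without the pair of libraries that stood apart, 6 signalling genes were higher and 11 lower.

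**Figure D3:**
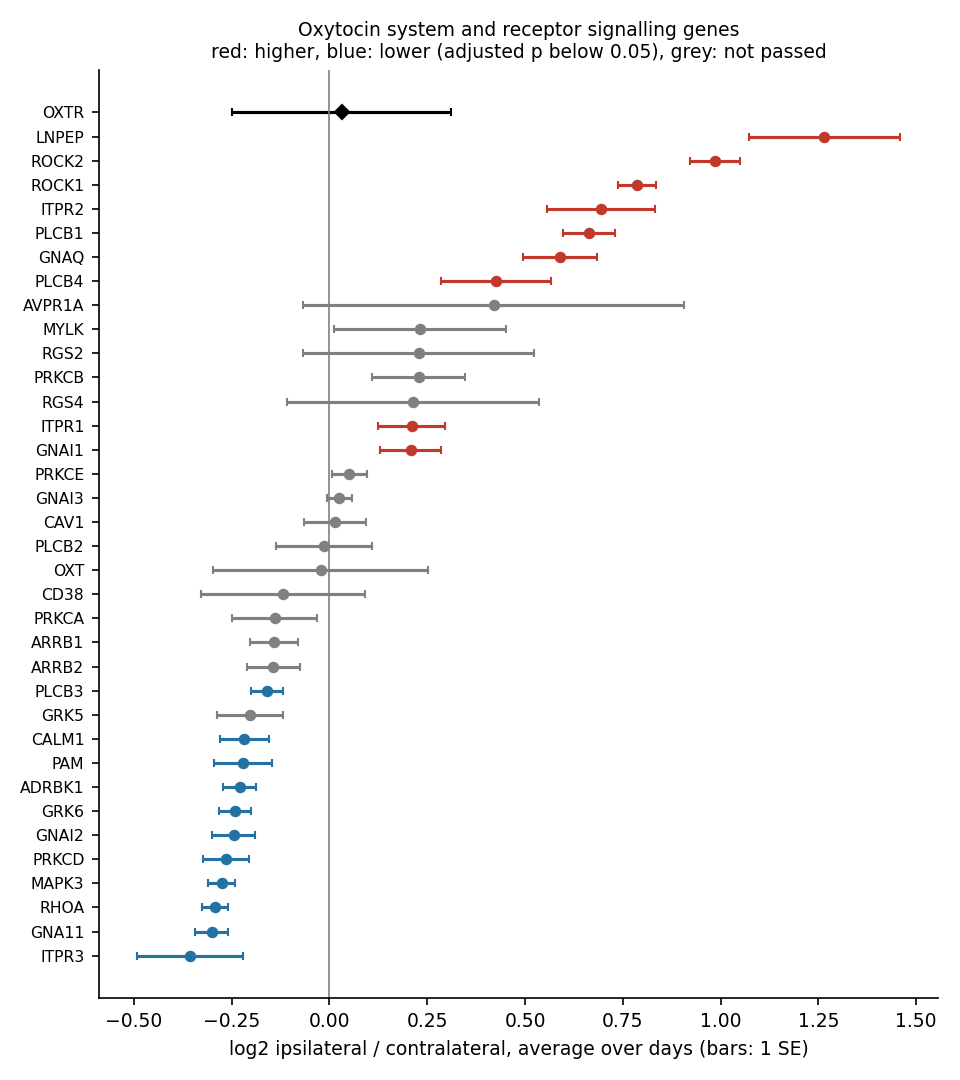
Log2 ratio of ipsilateral to contralateral level averaged over days (horizontal axis; bars 1 SE) for tested genes of the oxytocin system and of receptor signalling, with OXTR on top. OXTR lies at 0.03, LNPEP, ROCK2 and ROCK1 lie highest, and ITPR3 lies lowest.

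Of 22 nuclear receptors and transcription factors listed as possible regulators of OXTR, 21 were tested. The progesterone receptor gene PGR fell over the same days as OXTR, but its mean on day 16 stayed below that of day 7, whereas that of OXTR passed it. PGR on day 5 ranged from 12.8 to 19.96 CPM ipsilaterally and from 10.9 to 24.3 CPM contralaterally. On day 7 it ranged from 5.78 to 10.9 and from 4.09 to 9.64 CPM, on day 13 from 3.14 to 5.13 and from 2.64 to 4.66 CPM, and on day 16 from 4.11 to 6.60 and from 3.57 to 9.03 CPM. Days 5 and 7 did not overlap in either horn, while days 13 and 16 did. PGR fell from day 5 to day 7 by 1.00 ± 0.24 (SE, adjusted p = 0.00205) and by 1.05 ± 0.24 (SE, adjusted p = 0.00211) on the log2 scale. It fell again from day 7 to day 13, by 1.09 ± 0.25 (SE, adjusted p = 0.00072) and by 1.05 ± 0.25 (SE, adjusted p = 0.00104). Its log2 changes from day 13 to day 16 were 0.51 ± 0.24 and 0.62 ± 0.24 (SE) and did not pass the test (adjusted p = 0.395 and 0.249).

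The estrogen receptor gene ESR1, whose product is known to favour OXTR expression, followed another course. Its level was 22.3 ± 4.19 and 23.8 ± 6.59 CPM (SD, n = 5) on day 5 in the ipsilateral and contralateral horn. On day 13 it was 10.7 ± 2.65 and 12.9 ± 2.64 CPM, and on day 16 it was 9.95 ± 1.62 and 11.9 ± 1.46 CPM (SD, n = 5). ESR1 fell from day 7 to day 13 by 0.72 ± 0.18 (SE, adjusted p = 0.00244) ipsilaterally. The contralateral log2 change of -0.48 ± 0.18 (SE, adjusted p = 0.0371) lost its call when any of 6 single libraries was left out. From day 13 to day 16, while OXTR rose, ESR1 changed by -0.11 ± 0.18 (SE) in both horns (adjusted p = 0.885 and 0.874).

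ESR2, the other estrogen receptor, rose from day 5 to day 7 by 1.10 ± 0.21 (SE, adjusted p = 0.000175) and 0.86 ± 0.21 (SE, adjusted p = 0.00339). GREB1, an estrogen-responsive gene, fell from day 7 to day 13 by 1.39 ± 0.36 (SE, adjusted p = 0.0027) and by 1.62 ± 0.36 (SE, adjusted p = 0.000499). The glucocorticoid receptor NR3C1 fell from day 5 to day 7 by 0.46 ± 0.13 (SE, adjusted p = 0.00761) and by 0.50 ± 0.13 (SE, adjusted p = 0.00635). IRF2, an interferon regulatory factor known mostly as a repressor, rose by 0.43 ± 0.07 (SE, adjusted p = 2.54e-05) and 0.31 ± 0.07 (SE, adjusted p = 0.00182). Over the list, 3 regulators rose and 5 fell ipsilaterally from day 5 to day 7, and 3 rose and 3 fell contralaterally, beside 15.9% and 14.8% of all genes ipsilaterally and 10.1% and 9.65% contralaterally. From day 7 to day 13 the counts were 4 and 3 ipsilaterally, beside 14.5% and 15.3%, and 5 and 3 contralaterally, beside 15.8% and 17.1%. From day 13 to day 16, edgeR called 0 regulators in either horn, beside 1.02% and 1.33% of all genes. At an unadjusted p below 0.05 there were 4 and 3 of the 21, beside 12.1% and 12.5% of all genes.

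**Figure D4:**
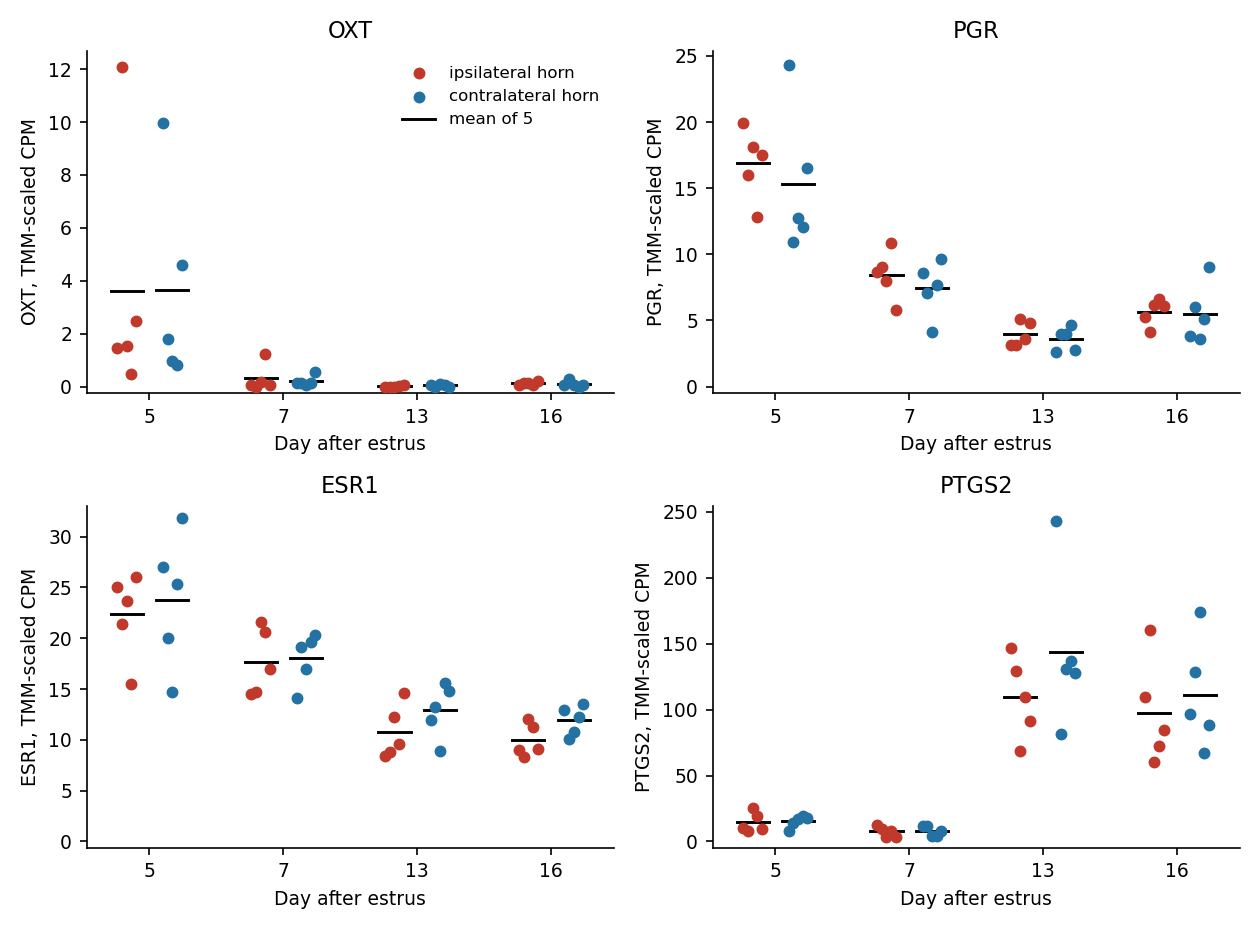
Level in each library (points, TMM-scaled CPM, linear axes) of OXT, PGR, ESR1 and PTGS2 by day after estrus and horn, with group means as lines. OXT is at or below 1.22 CPM in every library after day 5, PGR is lowest on day 13, ESR1 stays low on day 16, and PTGS2 is highest on days 13 and 16.

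The prostaglandin F pathway is what endometrial oxytocin receptors drive, and 12 of its 15 listed genes were tested. Its inducible first enzyme PTGS2 was low on days 5 and 7, across the drop of OXTR, and high on days 13 and 16, across its return. PTGS2 ranged from 8.26 to 25.5 CPM ipsilaterally and 7.86 to 19.3 CPM contralaterally on day 5, and from 3.39 to 12.8 and 4.03 to 11.8 CPM on day 7. On day 13 it ranged from 68.9 to 147 and from 81.8 to 243 CPM, above every library of days 5 and 7. PTGS2 rose from day 7 to day 13 by 3.86 ± 0.41 (SE, adjusted p = 8.18e-09) and 4.18 ± 0.42 (SE, adjusted p = 1.71e-09) on the log2 scale, 14.5-fold and 18.1-fold. From day 13 to day 16 its log2 changes were -0.17 ± 0.36 and -0.37 ± 0.36 (SE), which did not pass (adjusted p = 0.924 and 0.754).

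At several extremes of days 5, 13 and 16, though not at all of them, OXTR and PTGS2 lay at opposite ends of their groups. On day 5 the library with most OXTR had the least PTGS2 of its group in each horn. The values were 144 and 8.26 CPM in heifer 3-175 ipsilaterally, and 110 and 7.86 CPM in heifer 1-315 contralaterally. On day 13 the library with most OXTR had the least PTGS2 of its group in each horn: 7.94 and 68.9 CPM in heifer 5-167 ipsilaterally, and 7.71 and 81.8 CPM in heifer 5-140 contralaterally. On day 16 the library with least OXTR had the most PTGS2 of its group in each horn: 4.52 and 160 CPM in heifer 3-155 ipsilaterally, and 10.1 and 174 CPM in heifer 5-137 contralaterally. On day 16 ipsilaterally the library with most OXTR, 25.3 CPM in heifer 5-137, also had the least PTGS2, 59.9 CPM. At the remaining extremes of these days the order did not hold. The least OXTR of day 5 went with 10.2 and 13.8 CPM of PTGS2 ipsilaterally and contralaterally, below maxima of 25.5 and 19.3 CPM. The least OXTR of day 13 went with 129.5 and 137 CPM of PTGS2 ipsilaterally and contralaterally, below maxima of 147 and 243 CPM. The most OXTR of day 16 contralaterally went with 88.4 CPM, above a minimum of 67.2 CPM. Nor did the order hold between the extremes. The contralateral day 16 library of tag 3-155 had the second highest value of both, 24.7 and 129 CPM. On day 13 ipsilaterally 5.07 CPM of OXTR went with 110 CPM of PTGS2 but 2.04 CPM with 91.4 CPM. On day 7 the order was the other way, since the 2 libraries with least OXTR in each horn also had the least PTGS2, 3.39 and 3.64 CPM ipsilaterally and 4.03 and 4.43 CPM contralaterally. These orders were read from 5 libraries a group after the values were seen, and no test was made of them.

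PLA2G4A, the phospholipase that frees arachidonic acid, rose from day 7 to day 13 by 1.13 ± 0.21 (SE, adjusted p = 5.77e-05) and 1.45 ± 0.21 (SE, adjusted p = 1.19e-06). AKR1B1, the aldose reductase that acts as a prostaglandin F synthase in bovine endometrium, rose earlier, from day 5 to day 7, by 1.88 ± 0.24 (SE, adjusted p = 6.00e-07) and 1.58 ± 0.24 (SE, adjusted p = 1.44e-05). The aldo-keto reductase AKR1C4 rose over the same days by 2.94 ± 0.63 (SE, adjusted p = 0.000619) and 2.58 ± 0.62 (SE, adjusted p = 0.00284). Over the list, 3 genes rose and 2 fell ipsilaterally from day 5 to day 7, and 2 rose and 0 fell contralaterally, beside 15.9% and 14.8% of all genes ipsilaterally and 10.1% and 9.65% contralaterally. From day 13 to day 16 edgeR called 0 pathway genes in either horn, beside 1.02% and 1.33% of all genes. At an unadjusted p below 0.05 there were 5 and 3 of the 12, beside 12.1% and 12.5% of all genes. Among those that fell ipsilaterally from day 5 to day 7 was the prostaglandin F receptor PTGFR, by 5.65 ± 1.28 (SE, adjusted p = 0.00109). Heifer 8-1350 held 52.8 CPM of it, against 0.531 to 3.21 CPM in the other 4, and without that library the log2 change was -2.67 (adjusted p = 0.0614). The difference between horns of PTGFR on day 5, 4.30 ± 1.18 (SE, adjusted p = 0.00707), became 1.32 (adjusted p = 0.396) without it, and 2.41 (adjusted p = 0.318) with the replicate block.

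**Figure D5:**
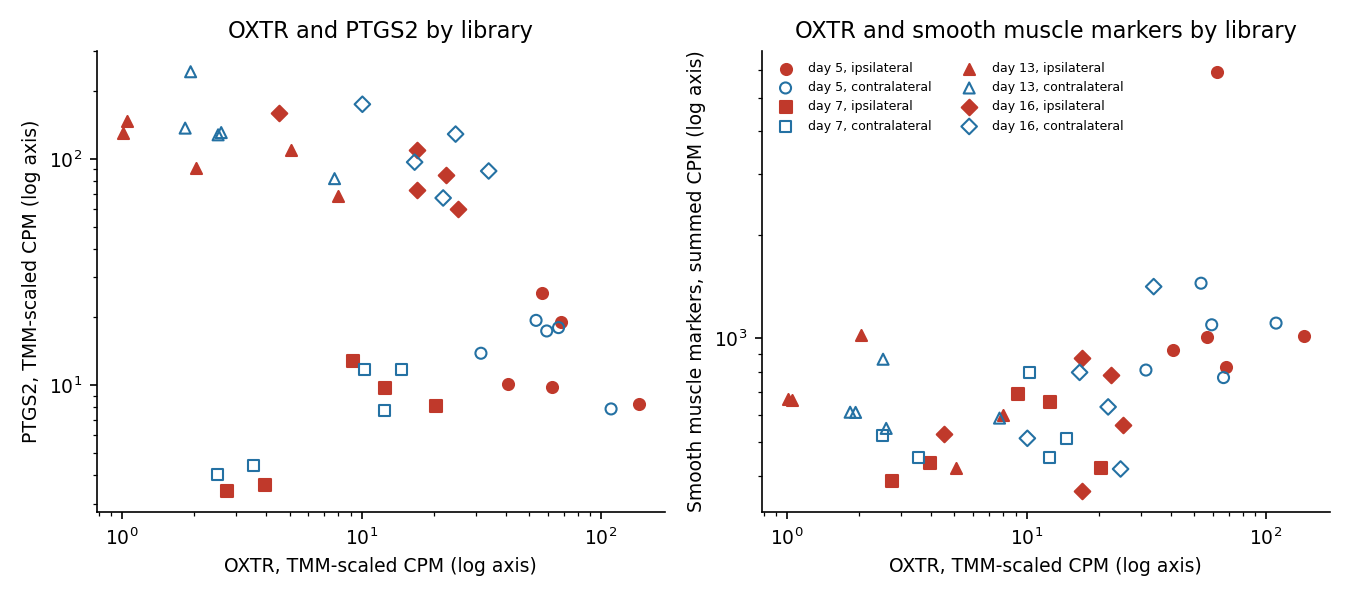
OXTR (horizontal axis, TMM-scaled CPM, log axis) in each library against PTGS2 (left) and against the summed CPM of 12 smooth muscle markers (right), both on log axes, by day (symbol) and horn (colour, open symbols contralateral). On day 16 the libraries with 4.52 and 10.1 CPM of OXTR have the most PTGS2 of their groups, and the library with 5939 CPM of smooth muscle markers has an OXTR level of 62.4 CPM.

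Interferon-stimulated genes, which respond to conceptus interferon tau in pregnant ruminants, were set beside OXTR because embryo presence is not stated. On day 16 their summed level was 520 to 835 CPM, and ISG15, which encodes a ubiquitin-like protein, was at 3.04 to 9.99 CPM in all 10 libraries. The highest sums were on day 7, at 6803 CPM in the ipsilateral library of heifer 4-064 and 7358 CPM in the contralateral library of heifer 5-117. OXTR in that pair of libraries was 2.75 and 3.53 CPM, among the low values of the day, but heifer 6-338 ipsilaterally had 3.93 CPM of OXTR with a sum of 474 CPM. From day 13 to day 16, edgeR called 0 of 20 of these genes in either horn, beside 1.02% and 1.33% of all genes. Their medians were -1.14 and -1.24 on the log2 scale. At an unadjusted p below 0.05 there were 2 and 3, beside 12.1% and 12.5% of all genes. DESeq2 called 1 ipsilaterally as lower and 0 contralaterally, and limma-voom called 0 in both.

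Stromal and epithelial markers moved with the first OXTR change and little with the second, over which few genes of any kind passed. How many smooth muscle markers passed over the first depended on the pair of libraries that stood apart. From day 5 to day 7, 10 of 12 smooth muscle markers fell ipsilaterally and 2 contralaterally, which became 4 and 5 without that pair. Both libraries are ipsilateral, so the contralateral count changed only through the model shared by all libraries. The contralateral median was -0.57 with and without them. Stromal markers fell in 5 of 8 and 3 of 8, while 8 of 12 and 5 of 12 epithelial markers rose and 2 fell in each horn. Of the endothelial markers 0 of 6 and of the immune cell markers 0 of 7 passed in either horn. Without the pair, 1 of each fell ipsilaterally. Over these days 15.9% of all genes passed as higher and 14.8% as lower ipsilaterally, and 10.1% and 9.65% contralaterally. The medians of the smooth muscle markers were -1.67 and -0.57 and those of the stromal markers -0.71 and -0.47 on the log2 scale, against -2.93 and -2.88 for OXTR. Without that pair the ipsilateral medians were -0.68 for smooth muscle and -0.75 for stroma. From day 13 to day 16, edgeR called 1 epithelial marker as lower contralaterally and 0 other smooth muscle, stromal or epithelial markers, with medians between -0.15 and 0.12. Of all genes 1.02% passed ipsilaterally and 1.33% contralaterally over this interval. The part of tissue composition in the OXTR changes was not tested.

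The genes whose level was most like that of OXTR were found by the smaller of the Pearson correlations of log2 CPM over the 20 ipsilateral and the 20 contralateral libraries, among 16736 genes. They were NUTF2 (0.880), IPO4 (0.870), CHSY1 (0.861), P2RY14 (0.860), PUS7 (0.849), G3BP1 (0.849), UGDH (0.848), HEATR3 (0.847), ACAT2 (0.845) and TUBA1C (0.842). NUTF2 and IPO4 encode nuclear import factors, CHSY1 and UGDH make chondroitin sulfate and its sugar precursor, and P2RY14 is a receptor for UDP-sugars. The libraries share their days, so any gene that is high on day 5 and low on day 13 scores well. All 10 moved less than OXTR, with day 5 over day 7 ratios of mean CPM of 1.32 to 2.29 and day 16 over day 13 ratios of 1.11 to 1.86. PGR ranked 24th, with 0.834 ipsilaterally and 0.811 contralaterally, and OXT 220th.

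In the RefSeq annotation of the ARS-UCD2.0 assembly, a later build than that of the files, OXTR overlaps CAV3, which lies inside its span, and the end of SSUH2, while RAD18 is a neighbour without overlap. The strand setting of the counting step is not stated in these sources. CAV3 had 0 to 8 reads a library. SSUH2 had mean levels of 6.21, 41.9, 18.6 and 6.45 CPM on days 5, 7, 13 and 16, highest on day 7 when OXTR was low, and RAD18 of 28.4, 19.9, 16.9 and 17.3 CPM.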

How the data were processed

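Gene counts for 40 stranded mRNA libraries of endometrial homogenate were analysed. Per the submitters' processing notes FastQC, HISAT2 and featureCounts were used with build UMD3.1, in an order and with versions not given in the sources used here. The deposited values are counts of reads per gene, not normalized by the authors, and 27 gene names had turned into dates. Groups, days and horns came from the labels.

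Counts were tested with edgeR 4.0.16 (R 4.3.3) in 1 model of 8 groups over all libraries, with TMM scaling, filterByExpr, the quasi-likelihood F test and Benjamini-Hochberg adjustment over 20356 genes (threshold 0.05). Standard errors are the log2 change divided by the root of F. The fit was tested on simulated data. Horn differences, and the difference of day changes between horns, were tested for OXTR. Its day changes were not, since the gene was chosen for them. OXTR, the gene lists and the marker lists were chosen with earlier results of these data known, and are given by counts and medians. Every list member could be named, though 1 signalling gene is counted but not reported here by name; the 10 most OXTR-like genes were taken by correlation of log2 CPM (prior count 2, mean log2 CPM of at least 0). Within a horn the libraries of different days came from separate heifers. The spread was estimated over all 40 libraries as if separate, although each heifer gave 1 from each horn. The p-values of horn differences, and of differences in day changes between horns, therefore measure the spread between libraries and leave out the pairing. The horns pair by heifer tag in the labels, which the data put in doubt, and the replicate block is an alternative. Other alternatives were DESeq2 1.42.0 and limma-voom 3.58.1, RLE size factors, no filter, each horn alone, and leaving out each library. Leaving out 2 ipsilateral libraries together was chosen after seeing the data.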

Additional observations from a re-analysis of the deposited data

Results flagged for a closer look

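In 10 of 72 groups of 5 libraries checked, 1 library lay far from the other 4. The rule flags about 1 in 20 groups of independent, normally distributed values. That rate need not hold here, since the measures share the same libraries and all 10 flagged values were the highest of their group. For OXTR the flagged libraries were the day 5 ipsilateral library of heifer 3-175 and the day 13 contralateral library of heifer 5-140. They held 144 CPM against 41.1 to 68.5 CPM in the others, and 7.71 CPM against 1.83 to 2.59 CPM. The first is the deepest library of the series. OXT stood apart in the same day 5 library of heifer 3-175, at 12.1 CPM. It also did so on day 7 in the ipsilateral library of heifer 5-117 at 1.22 CPM and the contralateral library of heifer 6-338 at 0.537 CPM, and on day 16 in the contralateral library of heifer 3-155 at 0.299 CPM.

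The day 5 ipsilateral library of heifer 8-1350 stood apart with 52.8 CPM of PTGFR and with a smooth muscle marker sum of 5939 CPM. The smooth muscle marker sum was also set apart in the contralateral libraries of heifer 2-1337 on day 7, at 797 CPM, and of heifer 8-275 on day 13, at 870 CPM. OXTR was 10.3 CPM and 2.52 CPM in these last libraries, inside the range of each group.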

How the results depend on the processing

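The 8 OXTR day changes kept their direction in all 128 refits, from -3.39 to -2.55 on the log2 scale for day 5 to day 7 ipsilaterally and from 2.48 to 3.27 for day 13 to day 16 contralaterally. OXTR horn differences did not pass the threshold in any of 110 refits (lowest adjusted p 0.598), and 26 refits changed sign. On day 13 the log2 ratio was -0.17 with limma-voom and -0.0801 with the replicate block, and averaged over days -0.0549 and -0.0561. The cause was not tested. With single libraries left out it ranged from -0.17 to 0.50 on day 5, from -0.29 to 0.44 on day 7, from -0.53 to 0.60 on day 13 and from -0.11 to 0.17 averaged over days. The difference between horns in the day change ranged from -0.51 to 0.34 for day 5 to 7 and from -0.94 to 0.19 for day 13 to 16. The count of genes called from day 13 to day 16 ipsilaterally (208) was 438 with DESeq2, 88 with the ipsilateral libraries alone, 429 without the pair of libraries that stood apart, and 109 to 335 with single libraries left out. Contralaterally (271) it was 533 with DESeq2, 435 without the pair, and 124 to 287. Of 55 changes of named genes, 48 kept their call whichever library was left out. The exceptions not given above were OXT from day 7 to day 13, HPGD from day 5 to day 7 (both ipsilateral) and GNAQ from day 7 to day 13 contralaterally. Paired by the replicate block, the OXTR horn differences passed on no day. The SE of the OXTR horn difference lay between 0.54 and 0.59 on every day, which limits what could be detected.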
